A study of Mus musculus with 8 samples.

Results

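The genes described here encode 10 transcription factors of epithelial cells. They are the ETS factors Ehf, Elf3, Elf5 and Elf1, the Grainyhead factors Grhl1, Grhl2 and Grhl3, the related CP2 factor Tfcp2l1, and the zinc finger factors Ovol1 and Ovol2. Members were found by the gene name or accession that the array files give each probe, without use of any measured value. An older gene name was read as the current one, which added 1 probe of Tfcp2l1. Of the 10 genes, 9 had at least 1 probe (21 probes of 41174 on the array), and 8 were tested among 16068 genes. Grhl3 was matched by no probe, and its expression is not analysed here. A gene was tested only if a probe of it was well above background in every starved sample, in every unstarved sample, or in both, and Elf5 missed that filter.

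All samples were IMCD3 cells, a mouse kidney line derived from inner medullary collecting duct, with no genetic change named in the labels. Starved cells spent 48 h in serum-free medium, which induces cilia. Unstarved cells stayed in 10% serum, had been replated at a dilution of 1 to 10 on the previous day, and were subconfluent at harvest, so serum and cell density differed together. Each of 4 Agilent 2-colour arrays held 1 starved and 1 unstarved sample (8 samples in all), and the arrays belonged to 2 replicates, called biological in the series text. Starved RNA was in Cy5 on arrays 1 and 3 (replicate 1) and in Cy3 on arrays 2 and 4 (replicate 2), so replicate and dye orientation cannot be told apart. The mean over both replicates holds both orientations.

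ETS factors bind DNA with a shared ETS domain, and Ehf, Elf3 and Elf5 form a subgroup found mainly in epithelia, while Elf1 is broadly expressed and best known from lymphoid cells. Grainyhead factors keep epithelial cells joined and polarised by acting on genes of adherens and tight junctions. Tfcp2l1 patterns the cells of the renal collecting duct, and the OVO factors repress genes of the mesenchymal state.

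Most factors were read by several probes, and the probes of one gene did not always give the same ratio. The following 60-base sequences are shown because they read other stretches of Ehf, Grhl2 and Ovol2 than the brightest probe of each gene, from which the fitted values come. They are printed as the array files give them, with positions in build mm8. A probe that covers more than its own length in the genome joins pieces that lie apart there. No exon or UTR annotation of mm8 was used.
Ehf, A_52_P205877, chr2:103074767-103074926, minus strand: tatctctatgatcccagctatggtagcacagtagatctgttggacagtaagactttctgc
Ehf, A_52_P272429, chr2:103080589-103084405, minus strand: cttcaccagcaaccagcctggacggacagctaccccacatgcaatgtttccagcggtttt
Grhl2, A_51_P408821, chr15:37254260-37254319, plus strand: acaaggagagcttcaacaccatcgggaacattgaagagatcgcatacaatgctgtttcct
Grhl2, A_52_P373982, chr15:37305350-37305409, plus strand: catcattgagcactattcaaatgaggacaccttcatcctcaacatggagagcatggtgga
Ovol2, A_51_P322090, chr2:144009302-144022364, minus strand: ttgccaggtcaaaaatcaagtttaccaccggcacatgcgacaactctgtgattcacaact

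Ratios are log2 starved over unstarved within each array, and both arrays of a replicate were averaged first. Each mean over the 2 replicates is given with a moderated standard error from limma. With 1 residual and 15.1 prior degrees of freedom, this error rests mostly on a spread shared over all genes. So do the intervals and p-values, and none of them mainly measures how far the 2 replicates of a gene lie apart. Levels are normalised intensities of each sample after the channels were split. They are compared only within a probe, except in the sums of marker levels. Ehf, Grhl1 and Grhl2 were higher in starved cells, no factor was called lower, and the other 5 tested factors did not pass an adjusted p of 0.05 in limma. Over all genes the same test called 5051 (31.4%), with 2904 higher (18.1%) and 2147 lower (13.4%), so 3 of 8 lies near the background. The same shares are the background for the counts of the lists and neighbours below, unless another setting is named. At an unadjusted p of 0.05, 4 factors were higher and 1 lower, against 40.9% of all genes in either direction (22.9% higher and 18% lower). The median log2 ratio was 0.25 over the 8 factors and 0.01 over all tested genes. With arrays scaled by their median in place of loess, 249 of the 16068 genes were called (1.55%) and 1092 had an unadjusted p below 0.05. Where both groups had to be above background, 4715 of 15390 genes were called (30.6%). In bulk RNA, fewer cells of a type and less RNA per cell cannot be told apart.

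**Figure D1:**
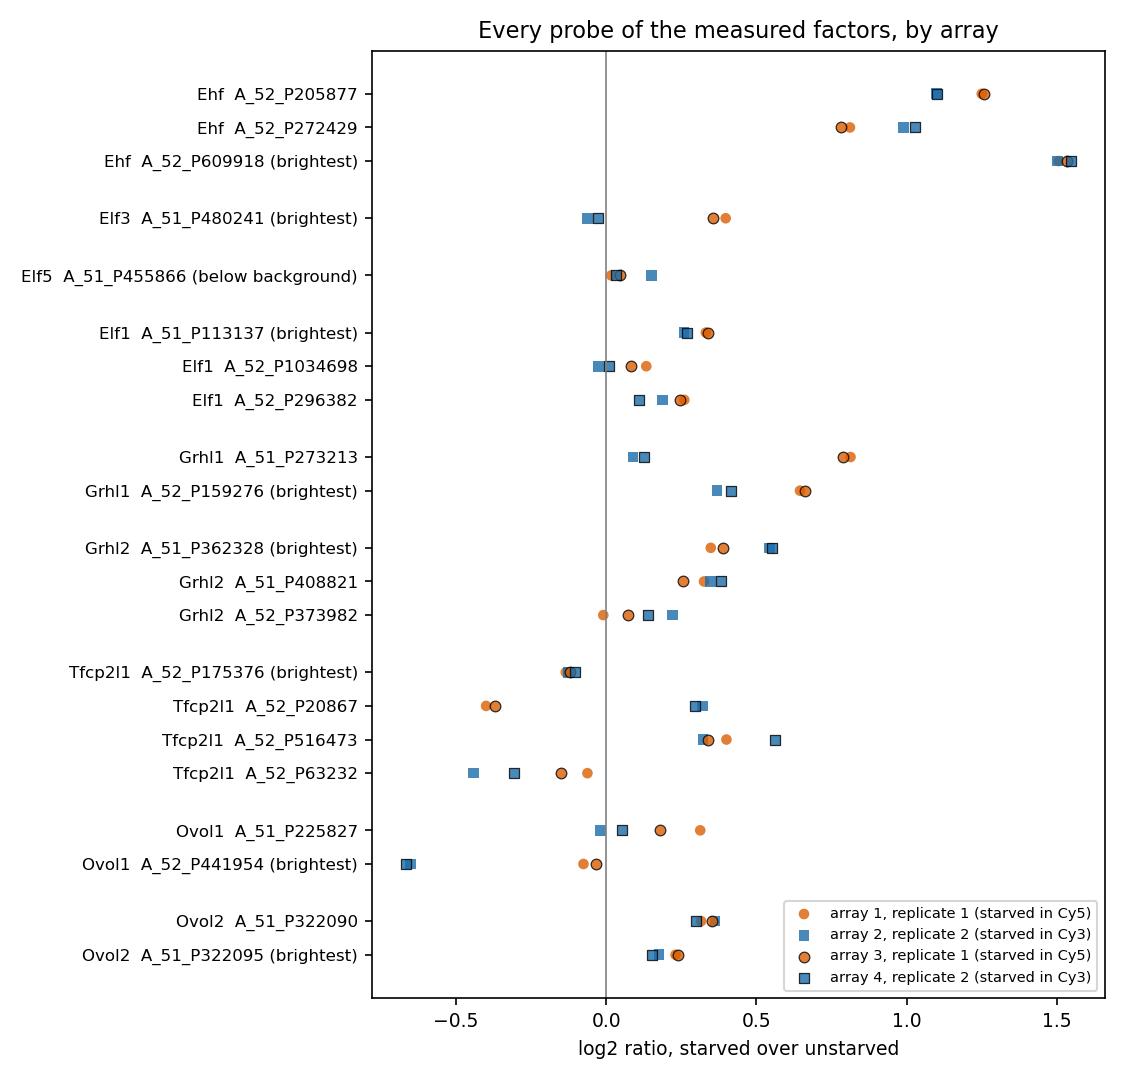
The log2 ratio of starved over unstarved cells (x axis) is plotted for each of the 21 probes, grouped by gene, on each of the 4 arrays; circles are replicate 1 and squares replicate 2. The 3 Ehf probes lie between 0.78 and 1.55 on all arrays, while probes of Tfcp2l1 and Ovol1 fall on both sides of 0. The Elf3 probe and a dimmer probe each of Elf1 and Grhl2 also have arrays on both sides of 0.

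Ehf, known as a regulator of epithelial genes, had the highest ratio of the 8 factors. Its brightest probe (A_52_P609918, chr2:103065066-103065125, minus strand) read 4487, 4307, 4381 and 4854 in starved cells on arrays 1 to 4, against 1580.1, 1521, 1513 and 1659.7 in unstarved cells. Every starved sample lay above every unstarved sample, and the levels within a group were close together. The log2 ratio was 1.52 ± 0.12 (moderated SE, n = 2 replicates), a 2.87-fold higher level in starved cells. The limma adjusted p was 9.32e-08, with a 95% interval of 1.26 to 1.78. Each replicate gave 1.52, and Ehf ranked 137 from the highest ratio among the 16068 genes. Changes of at least 2-fold that passed were found for 701 genes (4.36%), and Ehf was the only one of the 8 factors among them.

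Both other Ehf probes, printed above, also passed when every probe was fitted on its own. Probe A_52_P205877 read 3478 to 3928 in starved cells, against 1454 to 1833 in unstarved cells, a log2 ratio of 1.18 (adjusted p over all probes 1.86e-06). Probe A_52_P272429 read 815 to 929 in starved cells, against 441 to 474 in unstarved cells, a log2 ratio of 0.90 (adjusted p 4.17e-05). The sizes thus ran from 0.90 to 1.52 with one direction, and the mean over the 3 probes was 1.20. The 3 tested genes whose ratios lay nearest to those of Ehf over the 4 arrays, by Euclidean distance, were Hmgcs1 (distance 0.0487), Calml4 (0.0588) and Tmprss6 (0.062), each with a log2 ratio of 1.52.

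Elf3, which is induced by inflammatory signals in epithelia, gave different answers in the replicates. It read 2860, 2490.3, 2940.1 and 2440.1 in starved cells on arrays 1 to 4, against 2171, 2599, 2299 and 2489 in unstarved cells. The starved samples were the higher ones on arrays 1 and 3 and the lower ones on arrays 2 and 4, and the groups overlapped. Replicate 1 gave a log2 ratio of 0.38 and replicate 2 one of -0.04, with a mean of 0.17 ± 0.13 (adjusted p = 0.381, interval -0.12 to 0.45). One sign on all 4 arrays was found for 7 of the 8 factors, Elf3 being the exception, and for 69.4% of all tested genes.

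Elf1 read 4838, 4606, 5119 and 4473 in starved cells on its brightest probe, against 3844, 3849, 4046 and 3713 in unstarved cells. The groups did not overlap, but the log2 ratio of 0.30 ± 0.12 did not pass (adjusted p = 0.0756, interval 0.04 to 0.56). It passed with the replicate as a random block over the 4 arrays (adjusted p = 0.0243) and with unpaired single-channel levels (adjusted p = 0.039). Its dimmer probes gave 0.20 (adjusted p 0.261) and 0.05 (adjusted p 0.803). Levels without overlap between the groups were found for 5 of the 8 factors (Ehf, Elf1, Grhl1, Grhl2 and Ovol2) and for 51.8% of all tested genes. Elf5, which drives the alveolar cells of the mammary gland, was not well above background on any array, at 89.6 to 95.3 in starved cells and 81.7 to 92.7 in unstarved cells. Elf5 lies directly beside Ehf on chromosome 2 in the RefSeq gene table.

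Among 22 other ETS genes on the array, 13 were tested, of which 3 were higher, 2 lower and 8 not called, with a median log2 ratio of 0.10. When arrays were scaled by their median in place of loess, the list median was -0.03, against -0.08 over all tested genes. No gene of the list then passed in limma (3 at an unadjusted p of 0.05), against 1.55% of all genes. Etv1 was well above background in starved cells on all 4 arrays and in unstarved cells on none. It was thus tested through the starved samples alone, and starved cells held it at a level at least 1.98-fold higher. Where both groups had to be above background, 12 genes of the list were tested. Of these 2 were higher and 2 lower, against 30.6% of all genes called. Elf2, a relative of Elf1, was higher by 0.64 (adjusted p = 0.0011). Elk3, a serum response partner that represses transcription, was at -0.98 (adjusted p = 1.56e-05), and Etv4, a target of growth factor signalling, at -0.84 (adjusted p = 0.000145). Spdef, another epithelial ETS factor, and Spi1, Erg and Fli1, which mark blood and endothelial cells, were above background on no array.

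**Figure D2:**
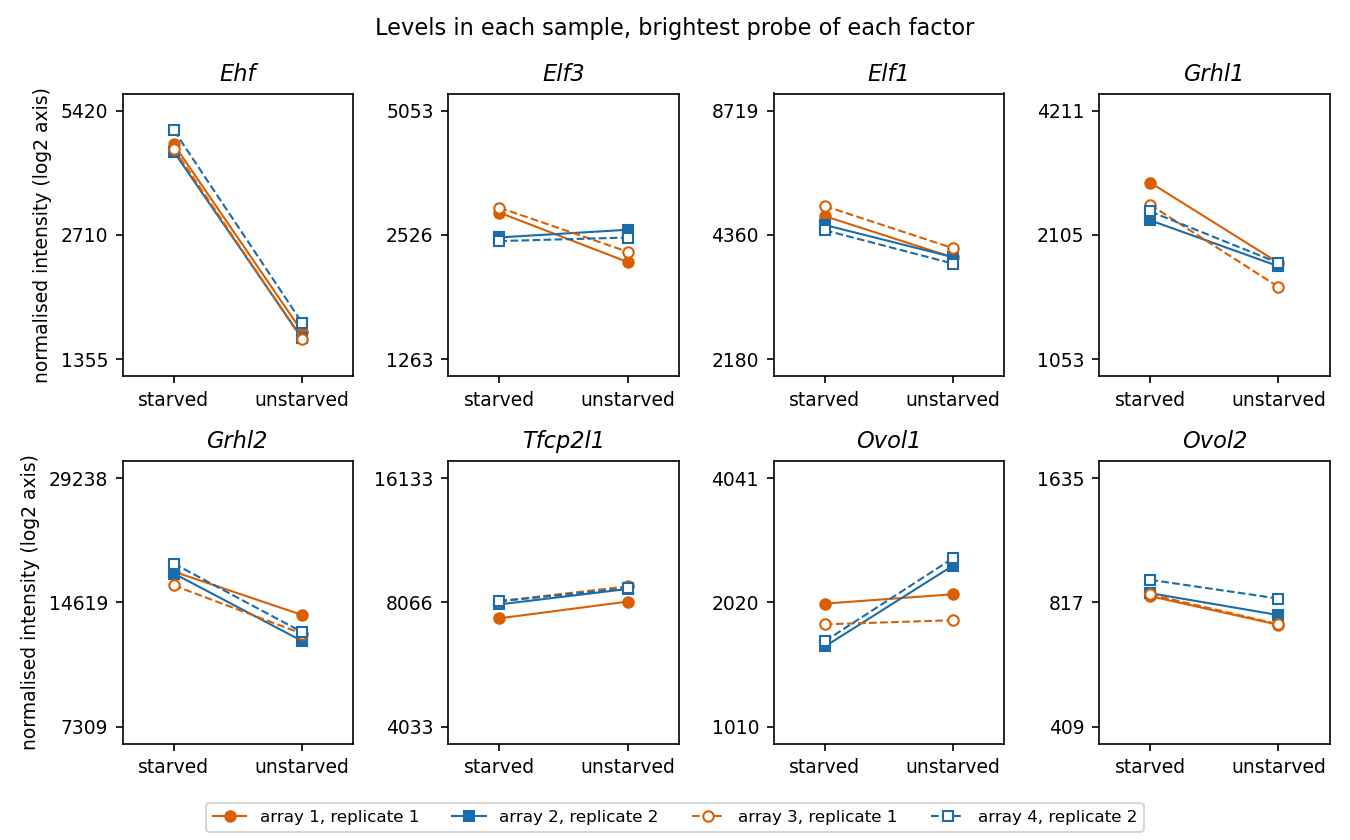
Normalised intensity (y axis, log2 scale spanning the same number of doublings in each panel) of the brightest probe is plotted for starved (left) and unstarved (right) samples, with a line joining the samples of an array (orange circles for replicate 1, blue squares for replicate 2); solid lines with filled points are arrays 1 and 2, and dashed lines with open points are arrays 3 and 4. Ehf is higher in starved cells on all 4 arrays by a similar step, whereas the lines of Elf3 slope one way in replicate 1 and the other way in replicate 2.

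Grhl1 and Grhl2 were both higher in starved cells, by smaller amounts than Ehf. Grhl1, which acts on desmosomal cadherin genes in skin, read 2816, 2282, 2488 and 2398 in starved cells on its brightest probe (A_52_P159276, chr12:25206208-25206267), against 1801, 1767, 1574 and 1799.5 in unstarved cells. No starved sample reached as low as an unstarved one. The log2 ratio was 0.52 ± 0.13 (adjusted p = 0.00472, interval 0.25 to 0.79), with 0.65 in replicate 1 and 0.39 in replicate 2. A second probe lay close by on the same chromosome and gave 0.80 in replicate 1 and 0.11 in replicate 2 (mean 0.45, adjusted p 0.0307), so the replicates differed more there.

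Grhl2, which activates E-cadherin and claudin genes and shapes the lumen of renal tubules in the mouse, read 17346, 17166, 16061 and 18137 in starved cells on its brightest probe (A_51_P362328, chr15:37307958-37308017). The unstarved cells read 13626, 11783, 12275 and 12385, all below every starved sample. The log2 ratio was 0.46 ± 0.12 (adjusted p = 0.0102, interval 0.19 to 0.72), with 0.37 in replicate 1 and 0.55 in replicate 2. Both printed Grhl2 probes were far dimmer and did not pass. A_51_P408821 read 387 to 415 in starved cells, against 316 to 324 in unstarved cells (0.33, adjusted p 0.061), and A_52_P373982 read 203 to 226 in starved cells, against 191 to 214 in unstarved cells (0.11, adjusted p 0.575). With the mean of all 3 probes the ratio was 0.30 and Grhl2 no longer passed (adjusted p = 0.0664). With median scaling neither Grhl1 (0.49) nor Grhl2 (0.29) passed, both with an adjusted p of 1.

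Of 20 epithelial genes that GRHL2 is known to bind, 19 were tested, of which 12 were higher, 2 lower and 5 not called. Over all tested genes 18.1% were higher and 13.4% lower. The median log2 ratio of the list was 0.49. Prss8, a membrane-anchored protease that activates the sodium channel, was higher by 1.07 ± 0.13 (adjusted p = 1.21e-05). Erbb3, a receptor for neuregulins, was higher by 0.85 ± 0.12 (adjusted p = 6.24e-05). The tight junction gene Cldn4 was higher by 0.86 ± 0.19 (adjusted p = 0.00275), with 0.26 in replicate 1 and 1.47 in replicate 2. Both genes that fell were adhesion genes, the laminin subunit Lama3 at -1.35 (adjusted p = 8.51e-07) and P-cadherin, Cdh3, at -0.62 (adjusted p = 0.00104), the second named after its value was seen. The other 9 higher genes lay between 0.35 for Esrp1 and 0.73 for Ap1m2, and the 5 uncalled genes between 0.17 for St14 and 0.24 for Cldn3. No gene of the list passed in limma with median scaling (2 at an unadjusted p of 0.05), where 1.55% of all genes passed. The list median there was 0.32, against -0.08 over all genes.

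Of 12 genes of the epidermal barrier and its junctions that are linked to GRHL1 and GRHL3, 8 were tested, with 0 higher, 3 lower and 5 not called in limma and a median of -0.07. At an unadjusted p of 0.05, 1 was higher, Lmo4 at 0.35 (adjusted p = 0.0638). Krt5, a keratin of basal cells, was at -1.26 ± 0.12 (adjusted p = 8.42e-07), with a fold of 0.417. The cross-linking enzyme Tgm1 was at -1.01 (adjusted p = 9.46e-06) and the desmosomal cadherin Dsc2 at -0.47 (adjusted p = 0.00803). The epidermal genes Ivl and Dsg1a were above background on no array. With median scaling no gene of the list passed in limma (2 at an unadjusted p of 0.05), against 1.55% of all genes.

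Tfcp2l1 was measured by 4 probes that did not give one direction. The brightest (A_52_P175376, chr1:120512615-120512674, named with an older symbol on the array) read 7378, 7973.5, 8119.5 and 8116 in starved cells, against 8098, 8691, 8818 and 8717 in unstarved cells. Starved samples were slightly lower on each array, while the groups overlapped. The log2 ratio was -0.12 ± 0.12 (adjusted p = 0.501, interval -0.38 to 0.14). Probe A_52_P516473 gave 0.41 (adjusted p 0.0225 in the fit of single probes) from 223 to 280.5 in starved cells, against 151 to 222 in unstarved cells. Probe A_52_P63232 gave -0.24 (adjusted p 0.185), and a probe without coordinates gave -0.38 in replicate 1 and 0.31 in replicate 2. The mean of all 4 probes was 0.00 (0.001602, adjusted p = 0.992), which reverses the sign.

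Of 20 collecting duct genes linked to TFCP2L1, 13 were tested, with 4 higher, 3 lower and 6 not called, and a median of -0.07. Scnn1g, a subunit of the epithelial sodium channel, was higher by 2.30 ± 0.12 (adjusted p = 1.19e-09). The vasopressin receptor gene Avpr2 was higher by 1.11 (adjusted p = 6.2e-06), and its probe was well above background on 4 starved and 1 unstarved array. Slc26a4, the anion exchanger pendrin, was higher by 1.00 (adjusted p = 1.16e-05), with 4 starved and 3 unstarved arrays above background. The proton pump subunit Atp6v1c2 was lower at -1.01 (adjusted p = 1.36e-05). Foxi1 and Atp6v1b1, which define intercalated cells, were above background on no array, and the water channel gene Aqp2 of principal cells gave -0.19 (adjusted p = 0.265). Where both groups had to be above background, 10 genes of the list were tested and 4 passed, against 30.6% of all genes. With median scaling 1 of the 13 passed, against 1.55% of all genes.

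**Figure D3:**
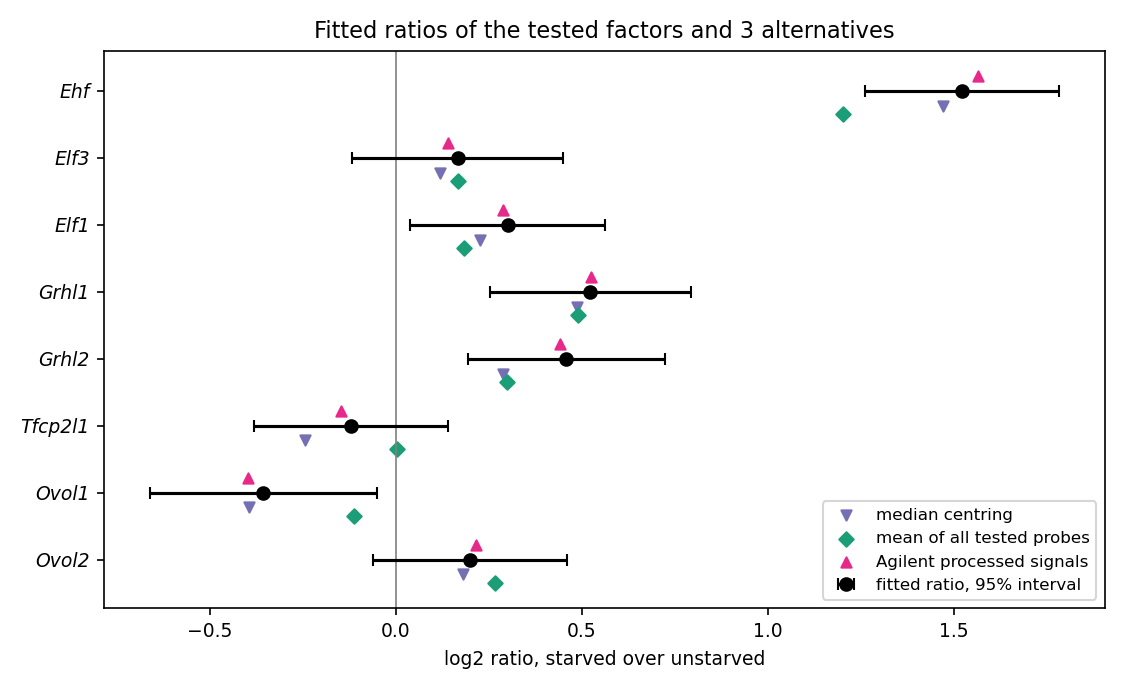
Black points with bars give the fitted log2 ratio of starved over unstarved cells (x axis) and its 95% interval for each of the 8 tested factors; coloured points give the ratio with median centring, with the mean of all tested probes, and from the Agilent processed signals. The Ehf points stay above 1 in each, and the Tfcp2l1 point for the mean of all probes lies at 0.

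Ovol1, a repressor that limits growth of epithelial progenitors, differed between the replicates on its brightest probe and was not called. Its brightest probe (A_52_P441954, chr19:5549209-5549268) read 2006, 1579.5, 1787 and 1627 in starved cells on arrays 1 to 4, against 2113.5, 2480.2, 1828.5 and 2584 in unstarved cells. The starved samples were the lower ones on each array, by little on arrays 1 and 3 and by more on arrays 2 and 4, and the groups overlapped. Replicate 1 gave a log2 ratio of -0.05 and replicate 2 one of -0.66, with a mean of -0.36 ± 0.14 that did not pass (adjusted p = 0.0709, interval -0.66 to -0.05). The second probe gave 0.13 (adjusted p 0.486). Ovol1 was called lower without array 1 (adjusted p = 0.037) and with a background offset of 10 (adjusted p = 0.0489), while the mean of both probes gave -0.11 (adjusted p = 0.544).

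Ovol2, which represses Zeb1 and holds cells in the epithelial state, read 846, 860.02, 854 and 927 in starved cells on its brightest probe, against 721, 761, 723 and 834 in unstarved cells. The groups did not overlap, although the lowest starved sample was near the highest unstarved one. Its log2 ratio of 0.20 ± 0.12 did not pass (adjusted p = 0.242, interval -0.06 to 0.46). The printed probe of another transcript accession, which covers 13063 bases of the genome, read 399.8 to 416.5 in starved cells, against 317 to 326 in unstarved cells. The ratio there was 0.33 (adjusted p 0.0566). The related genes Tfcp2 (0.26, adjusted p = 0.129) and Ubp1 (0.06, adjusted p = 0.75) of the CP2 family were not called.

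Of 10 factors of the mesenchymal state that oppose Grainyhead and OVO factors, 7 were tested, with 1 higher, 5 lower and 1 not called, and a median of -0.51. With the replicate as a random block over the 4 arrays, 1 was higher and 3 were lower, against 33.4% of all genes called. Twist2 was at -1.08 ± 0.12 (adjusted p = 5.01e-06). The zinc finger repressors of E-cadherin Zeb2 and Zeb1 were at -1.02 (adjusted p = 1.46e-05) and -0.81 (adjusted p = 0.000142). The other 2 that fell, Snai3 and Snai1, lay at -0.51 and -0.37, and the Snai1 probe was above background on 2 of 4 starved arrays. Sox9, which is also active in epithelial progenitors, was the 1 that rose (0.52, adjusted p = 0.00501), and Snai2, Prrx1 and Foxc2 were above background on no array. With median scaling no gene of the list passed in limma (2 at an unadjusted p of 0.05), against 1.55% of all genes. The list median there was -0.52, against -0.08 over all genes.

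**Figure D4:**
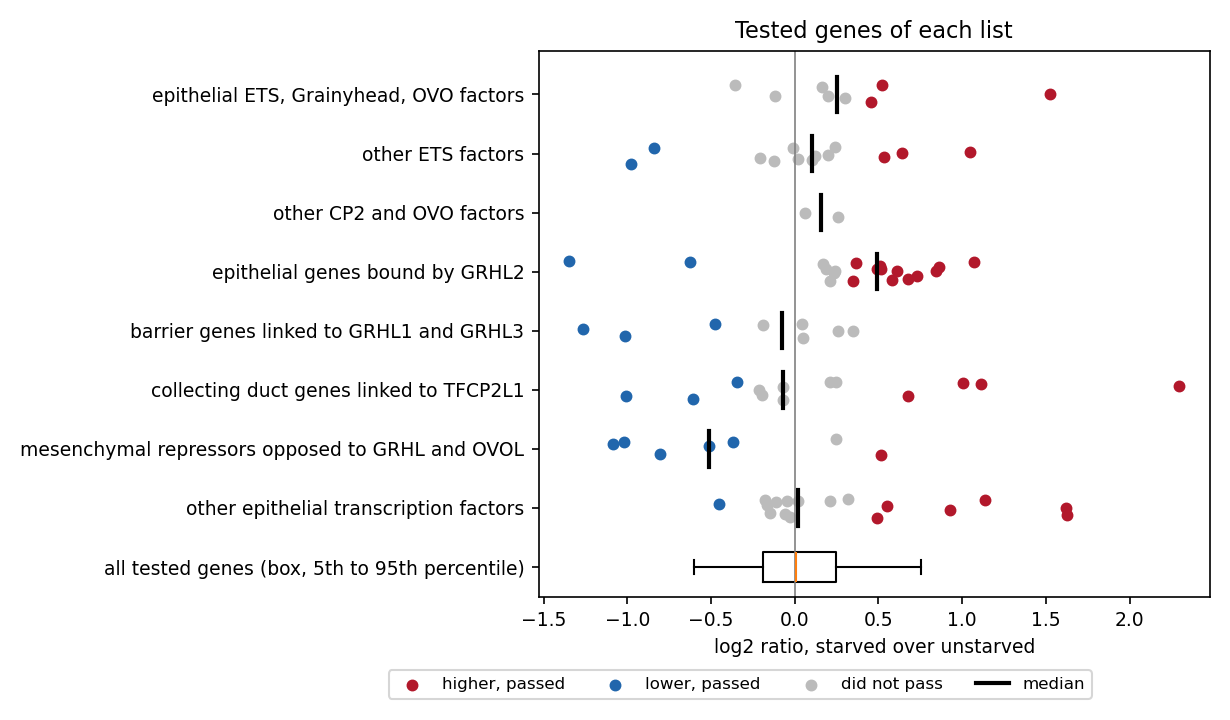
Each point is 1 tested gene, placed by its log2 ratio of starved over unstarved cells (x axis) and coloured by whether it passed an adjusted p of 0.05; black bars are list medians, and the box with whiskers from the 5th to the 95th percentile shows all 16068 tested genes. The median lies at 0.49 for genes bound by GRHL2 and at -0.51 for mesenchymal repressors, against 0.01 for all genes.

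Of 20 other transcription factors of epithelia and of the renal tubule, 17 were tested, with 6 higher, 1 lower and 10 not called, and a median of 0.02. With median scaling the list median was -0.05, against -0.08 over all genes, and 1 passed, against 1.55% of all genes. Cebpa, counted as higher, was above background on 4 starved arrays and 1 unstarved array. Where both groups had to be above background, 16 were tested, with 5 higher and 1 lower, against 30.6% of all genes called. Sim1, best known from hypothalamic neurons, was higher by 1.63 ± 0.13 (adjusted p = 9.37e-08). Cebpb, an inducible factor of acute responses, was higher by 1.62 ± 0.12 (adjusted p = 5.32e-08). Lhx1, needed for nephron formation, was higher by 1.14 (adjusted p = 2.57e-06), and Klf4, which slows division in epithelia, by 0.93 (adjusted p = 2.4e-05). Klf5 was the 1 that fell, at -0.45 (adjusted p = 0.00988), named after its value was seen; its 2 probes gave opposite signs, and it was not called lower with the mean of all tested probes. Pax2, Pax8 and Emx2, factors of the developing renal tubule, lay between -0.06 and 0.02 and did not pass.

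All 12 collecting duct epithelial markers stood above background and were tested, with 4 higher, 3 lower and 5 not called. E-cadherin, Cdh1, was higher by 0.67 (adjusted p = 0.000784), while the keratin genes Krt7, Krt19 and Krt8 were at -1.07 (adjusted p = 6.4e-06), -0.90 (adjusted p = 3.1e-05) and -0.64 (adjusted p = 0.00217). Of 9 fibroblast markers 3 were tested, and Col1a1 (-1.01, adjusted p = 9.66e-06) and Postn fell. Postn was above background on no starved array, was tested through the unstarved samples alone, and was at least 1.91-fold lower. Thy1, Pdgfra, Pdgfrb, Lum, Dcn and Col3a1 were above background on no array. Of 11 endothelial markers 2 were tested, and Flt1 (-1.02, adjusted p = 1.21e-05) and Eng (-0.53, adjusted p = 0.00357) fell, while Pecam1, Cdh5, Kdr and Vwf were above background on no array. Of 10 leukocyte markers 8 were tested, with Aif1 (1.49, adjusted p = 1.26e-07), Csf1r (1.44, adjusted p = 1.82e-07) and Cd14 (0.88, adjusted p = 5.75e-05) higher and Ptprc lower (-0.50, adjusted p = 0.00566, 2 of 4 starved arrays above background). Itgam and Laptm5 were above background on no array. The summed levels of a sample were 1191 to 1260 in starved and 1559 to 1690 in unstarved cells for fibroblast markers. For endothelial markers they were 2143 to 2369 in starved and 3306 to 3540 in unstarved cells. For leukocyte markers they were 18540 to 20400 in starved and 9973 to 10570 in unstarved cells. Probes that missed the filter were included, so part of each of these sums is signal at or near background. For the 12 collecting duct epithelial markers the sum was 622400 to 738000 in starved and 834900 to 894600 in unstarved cells, also without overlap. That sum is weighted by probe brightness. Its largest unstarved mean log2 levels were those of Krt8 (17.81), Krt7 (17.62), Krt18 (17.53) and Krt19 (16.39). Of these keratin genes Krt18 was not called and the others were lower, while Cdh1, Epcam, Hoxb7 and Cdh16 were higher. The part of these markers in the results for the factors was not tested.

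In the RefSeq gene table (GRCm38.p6, used for names and order only), 47 other protein-coding genes were among the 3 nearest on either side of a tested factor. Of these 36 were tested, with 6 higher, 6 lower and the rest not called, against 18.1% higher and 13.4% lower over all tested genes. The 1 neighbour that passed and differed by at least 2-fold was Cys1, which lies near Grhl1, encodes the ciliary protein cystin, and was higher by 1.56 (adjusted p = 7.72e-08). RefSeq promoter windows of 300 bases around a gene's start (GRCm38.p6) were matched for 7 of the 10 factors, as 10 windows. Ehf, Grhl2 and Ovol1 had no window, while Elf5 and Grhl3, whose expression was not tested, had one or more. On either strand, none of the 10 windows held AACCGGTT for Grainyhead factors, CAGGAAG or CCGGAAG for ETS factors, or CCGTTA for OVO factors. Among all 32851 windows of the table these letters occurred in 0.146%, 13.3%, 8.86% and 2.76%. No match says only that these letters are not in these windows.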

How the data were processed

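Expression was measured in 4 starved and 4 unstarved samples on 4 arrays, which share 1 slide and 1 scan, so no batch could be tested. Each spot's deposited intensity (mean signal, with the median of its local background) was written by Agilent Feature Extraction, version 9.5.3.1, per the file headers. The authors' deposited value table holds linear intensity values of the same arrays, with a scaling not given in the sources used here, and served as an alternative. Files of both samples of an array were identical, and each sample was read from the channel of its labelled dye.

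In R 4.3.3 with limma 3.58.1, signals were corrected with normexp (offset 50) and normalised by loess within arrays, giving weight 0 to 1639 control spots and to 583 spots flagged as outliers. No spot was saturated. Spots of a probe were averaged. Of 41174 probes, 24589 were kept, being well above background in every sample of at least 1 group. The brightest probe stood for a gene. Of the probes, 24375 were named through accessions, 6301 through current symbols, 2426 through synonyms and 8072 kept the array's name. The 2 log2 ratios of replicates were fitted with lmFit and eBayes (1 residual degree of freedom, 15.1 prior degrees of freedom, prior SD 0.1795), and p-values were adjusted by Benjamini-Hochberg over 16068 genes with a threshold of 0.05. Where a gene was not above background on any array of a group, the fold is a bound. On each array the dim sample was set to its own level or to a floor, whichever was higher. The floor was the lowest level well above background among all probes. Levels of samples come from loess and Aquantile normalisation.

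A technical swap of dyes within pairs is described in the series text, while by the labels the arrays of a replicate share one orientation; the labels were followed. Correlations of log2 ratios between arrays, over genes, were 0.991 within a replicate and 0.824 to 0.83 between replicates. Samples with one number deviated from their group means in opposite ways (r = -0.297 across genes). These samples carry opposite dyes, so this does not test the pairing. The ratio within an array pairs the samples hybridised together, as the series text states. The precision is limited by the number of arrays. On simulated data, in which far fewer genes were changed than were called here, large changes were recovered. Recovery of smaller changes, near the size of those of Grhl1 and Grhl2, is not reported here. The estimated prior degrees of freedom varied between draws, and false calls exceeded the nominal share in some draws.

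The factors, lists and tests were chosen with earlier results of these data known. All 10 factors are named with their probes, and from each other list up to 4 genes with the largest absolute ratio among those that passed; other names were added as examples or after their values were seen. Neighbours are named where they passed and differed by at least 2-fold. Alternatives covered the normalisation, offset, value source, filter, probe choice, array pairing, dye, block and left-out arrays.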

Additional observations from a re-analysis of the deposited data

How the results depend on the processing

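Over 19 alternatives the Ehf ratio ran from 1.20 to 1.56 with an adjusted p of at most 0.0415 wherever a test was possible. With median centring of each array in place of loess, 249 genes were called (1.55%), the median of all genes was -0.08, and 1 of 8 factors was called, Ehf at 1.47; the cause was not tested. With arrays 1 and 2 as one replicate and 3 and 4 as the other, 14296 genes and 8 factors (6 higher, 2 lower) were called. With arrays 1 and 4 against 2 and 3 these were 14102 and 8, and with a dye term over the 4 arrays 14200 and 8. In these 3 fits arrays of one replicate stand for separate replicates or the difference between replicates is taken out as dye. Leaving out each array in turn gave 4961 to 5519 genes and 3 to 4 factors, Ovol1 being the additional one without array 1. The fit of single-channel levels with a replicate block called 5051 genes and 3 factors; without the block it called 5858 and 4, and with the replicate as a random block over 4 arrays 5359 and 4, Elf1 being the additional factor in both (adjusted p = 0.039 and 0.0243). An offset of 10 called 4 factors, and the mean of all probes 2, with Tfcp2l1 at 0.001602 in place of -0.12. The Agilent processed signals, the deposited table and both other filters called 3 factors each. The list counts under these settings were added after the data were seen. Elf5 was limited by signal at background.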
